A study of Sus scrofa with 10 samples.

Results

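Iron and heme handling was followed through 6 genes in liver RNA of male pigs, with 5 libraries from the high and 5 from the low phenotype of growth and fatness. The genes were those of 9 named for the transport, uptake, storage and sensing of iron and for the binding, synthesis and breakdown of heme. Of these 9, the plasma iron carrier TF, its receptors TFRC and TFR2, the ferritin light chain FTL, the heme carrier HPX and the heme synthesis enzyme ALAS1 were found among the 25009 gene identifiers of the table by their pig Ensembl names. The other 3, HAMP, FTH1 and HMOX1, were matched to no row and are not analysed here. The age of every sample is given as 175 without a unit, no treatment, diet or breed is given in the labels, and the tissue was frozen at slaughter. Whether the samples are separate animals is not said in the labels, so the p-values reflect the spread among these libraries, which may be technical.

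Iron travels in plasma bound to transferrin, the product of TF, which the liver secretes. Most cells take it up through the receptor encoded by TFRC, while the related receptor encoded by TFR2 is made mainly by hepatocytes and takes part in sensing circulating iron. Iron regulatory proteins, encoded by ACO1 and IREB2, stabilise the TFRC messenger when a cell is short of iron and block translation of the ferritin messengers, so that the FTL transcript need not follow ferritin protein. Heme released into plasma is bound by hemopexin, the product of HPX, and new heme is made along a pathway whose rate-limiting enzyme in liver is encoded by ALAS1. The liver also reads inflammation into iron handling, and in humans transferrin is among the plasma proteins that fall during an acute phase response.

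The values were RPKM (reads scaled to gene length and library size), which the authors computed, so levels can be compared between genes per length. They summed to between 539327 and 567220 per library. Relative depth, read from the steps of the lowest values, was 0.748 to 1.05 times that of high replicate 1, on 4 to 23 genes per library, and the absolute depth is unknown. The hepatocyte genes ALB, TTR, CPS1 and CYP2E1 were all above 0 in all 10 libraries, with ALB between 22922 and 52025 RPKM. In this bulk tissue, fewer cells of a type and less RNA per cell cannot be told apart.

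The 6 genes lay at 3 heights. FTL, TF and HPX were among the most abundant transcripts, with ranks of 21, 22 and 25 by mean RPKM among the 10931 genes tested (mean of at least 1 RPKM). Their means over the 10 libraries were 3285 ± 974 RPKM for FTL, 3211 ± 1014 for TF and 2878 ± 447 for HPX (SD, n = 10), which do not differ beyond their spread. TF was above HPX in 5 of the 10 libraries, FTL was above TF in 5 and FTL was above HPX in 6. ALAS1 and TFR2 followed at 150.4 ± 52.6 and 149.8 ± 24.0 RPKM, again not distinguishable, with ALAS1 above TFR2 in 2 libraries. TFRC was the lowest at 18.0 ± 14.7 RPKM and stood at rank 2464. Together the 6 genes held between 1.10% and 2.18% of the summed RPKM of a library.

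**Figure D1:**
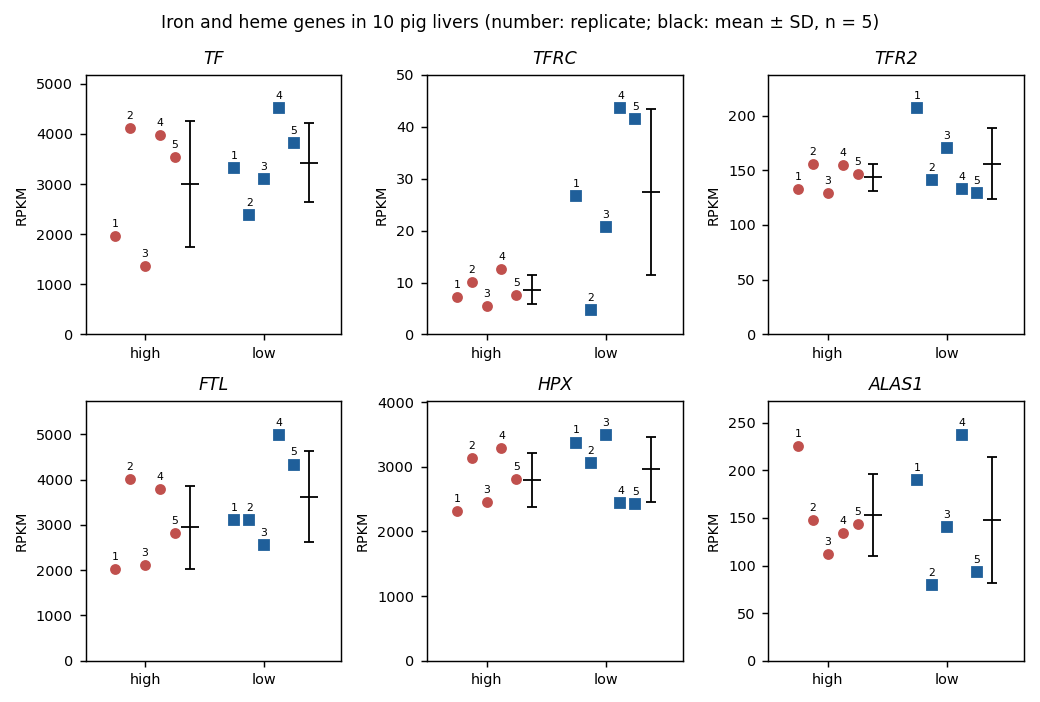
RPKM of the 6 genes in each library (vertical axis from 0), with circles for high, squares for low and the replicate number beside each point. Black bars give the mean ± SD of 5 libraries. Of the low TFRC values, 4 lie above all high values and low replicate 2, at 4.67 RPKM, lies below all of them.

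They also differed in how far they varied. The highest library exceeded the lowest 9.32-fold for TFRC, 3.31-fold for TF, 2.97-fold for ALAS1 and 2.46-fold for FTL, but only 1.60-fold for TFR2 and 1.51-fold for HPX. By the SD of log2(RPKM + 1) over all 10 libraries, TFRC stood at percentile 99.0 of the genes tested, TF at 91.3, ALAS1 at 89.3 and FTL at 83.5. HPX and TFR2 stood at 39.6 and 34.6.

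High and low livers were compared to see which transcripts go with the divergence of these pigs in growth and fatness. None of the 6 genes passed. TFRC had the largest difference, with 4 of 5 low libraries above every high library, and the other 5 had group means within 1.23-fold of each other. Over all 10931 genes limma called 0 at an adjusted p under 0.05, which is 0%, and 497 (4.55%) were under 0.05 before adjustment. Of the 6 genes, 5 had their higher mean in low, beside 51.2% of all genes, and 1 of them was under 0.05 before adjustment, beside 2.28% of all genes in that direction. Groups that did not overlap were seen in 0 of the 6 and in 0.805% of all genes.

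TFRC (ENSSSCG00000011848), the receptor that carries transferrin-bound iron into most cells, had 7.17, 10.1, 5.57, 12.7 and 7.52 RPKM in high replicates 1 to 5. In low replicates 1 to 5 it had 26.7, 4.67, 20.7, 43.5 and 41.5 RPKM. The high libraries lay between 5.57 and 12.7 RPKM, whereas the low libraries held both the highest values and the lowest value of the series. The high mean was 8.61 ± 2.80 RPKM and the low mean 27.4 ± 16.0 (SD over 5 libraries, as for all group means that follow), a ratio of 3.18. On the log2(RPKM + 1) scale, which understates the change of low genes, high minus low was -1.31 (SE 0.49, 95% interval -2.38 to -0.23). In limma the unadjusted p was 0.0213 and the adjusted p 0.961, so the difference did not pass. By size it was the 6th most negative log2 fold change of the 10931 genes, and by p TFRC stood at rank 181. The authors' deposited table gave TFRC a fold of 3.2 and a p of 0.04. An authors' p below 0.05 was held by 547 of the 10931 genes. A positive fold in the authors' deposited table stood with a higher mean RPKM in low for 98.1% of genes whose fold was not 1.

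Leaving out low replicate 2 moved the log2 fold change of TFRC to -1.81 (SE 0.26), with an unadjusted p of 4.05e-05 and an adjusted p of 0.441 in limma, so that it still did not pass. Low replicate 2 held the only low value that was not above every high value, so leaving it out was bound to part the groups. The share of all genes with parted groups in that setting was not computed. Without that library 7.48% of all genes were under 0.05 before adjustment. Leaving out low replicate 4 or low replicate 5 gave -1.07 and -1.09, with unadjusted p-values of 0.0545 and 0.0579 in limma.

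TFRC is also a transcript of red cell precursors and of dividing lymphocytes, so red blood cell and T and NK cell genes were read beside it. The T and NK cell list holds no gene of cell division, so dividing lymphocytes were not read as such. Of 12 red blood cell genes 6 were held by the table, and their summed level ran from 64.5 to 228 RPKM in high and from 99.0 to 209 in low, nearly all of it HBB. The erythroid heme synthesis gene ALAS2 had 1.24 to 4.01 RPKM, SLC4A1, EPB42 and KLF1 had at most 0.17 RPKM, and SLC4A1, EPB42, KLF1 and HBM were listed at 0 in at least 1 library. The T and NK cell genes, 6 of 7 held, summed to 16.7 to 30.7 RPKM in high and 23.3 to 48.0 in low. Low replicates 2 and 4, the lowest and the highest for TFRC, had the highest T and NK cell sums, 45.7 and 48.0 RPKM. The B and plasma cell genes summed to 1.27 RPKM in low replicate 2 and to 2.71, their highest, in low replicate 4. The cell source of TFRC was not tested. With the red blood cell level as a covariate the log2 fold change of TFRC was -1.27 (unadjusted p = 0.0353 in limma), and with the T and NK cell level it was -1.34 (unadjusted p = 0.0610 in limma).

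TFR2 (ENSSSCG00000007671), the iron-sensing relative of TFRC, had 133, 156, 129, 155 and 147 RPKM in high replicates 1 to 5. In low replicates 1 to 5 the values were 206, 141, 170, 132 and 129 RPKM. Low replicate 1 was the highest and the groups overlapped. The means were 144 ± 12.4 RPKM in high and 156 ± 32.5 in low, with a log2 fold change of -0.10 (SE 0.15, 95% interval -0.43 to 0.23) and an adjusted p of 0.974 in limma.

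TFR2 exceeded TFRC in all 10 libraries. The ratio of their RPKM lay between 12.2 and 23.1 in high. In low it was 7.75, 30.2, 8.21, 3.04 and 3.12 in replicates 1 to 5. The receptor made by most cells thus came closest to the hepatocyte receptor in low replicates 4 and 5.

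TF (ENSSSCG00000011640), which encodes transferrin, had 1963, 4124, 1363, 3982 and 3543 RPKM in high replicates 1 to 5 and 3325, 2391, 3100, 4507 and 3811 RPKM in low replicates 1 to 5. High replicates 1 and 3 were the lowest of the series and low replicate 4 the highest. The means were 2995 ± 1253 RPKM in high and 3427 ± 791 in low, with a log2 fold change of -0.29 (SE 0.32, 95% interval -0.99 to 0.41) and an adjusted p of 0.968 in limma. Without high replicate 3 it was -0.036. In the RefSeq table of assembly Sscrofa11.1 the symbol TF is given to 2 genes of the same chromosome, and how reads were split between similar copies is not stated, so the level of TF is uncertain.

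FTL (ENSSSCG00000003153), the light chain of the iron storage protein ferritin, had 2028, 4009, 2121, 3782 and 2814 RPKM in high replicates 1 to 5. In low replicates 1 to 5 it had 3106, 3117, 2549, 4989 and 4332 RPKM. As for TF, high replicates 1 and 3 were the lowest and low replicate 4 the highest. The means were 2951 ± 918 RPKM in high and 3619 ± 1006 in low, with a log2 fold change of -0.31 (SE 0.26, 95% interval -0.87 to 0.25) and an adjusted p of 0.961 in limma.

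HPX (ENSSSCG00000014626), whose product binds free heme in plasma, had 2316, 3134, 2448, 3290 and 2803 RPKM in high replicates 1 to 5 and 3375, 3056, 3495, 2445 and 2417 RPKM in low replicates 1 to 5. Both groups covered nearly the same range. The means were 2798 ± 421 RPKM in high and 2958 ± 507 in low, with a log2 fold change of -0.08 (SE 0.17, 95% interval -0.45 to 0.30) and an adjusted p of 0.987 in limma.

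ALAS1 (ENSSSCG00000011437), the first enzyme of heme synthesis outside red cell precursors, had 226, 148, 112, 135 and 143 RPKM in high replicates 1 to 5. In low replicates 1 to 5 it had 190, 80.0, 141, 237 and 92.7 RPKM. The low libraries spread over both ends of the series, and the highest high library was replicate 1. The means were 153 ± 43.1 RPKM in high and 148 ± 66.1 in low, with a log2 fold change of 0.12 (SE 0.30, 95% interval -0.54 to 0.78) and an adjusted p of 0.988 in limma. Its direction turned when high replicate 1, low replicate 2 or low replicate 5 was left out, with log2 fold changes of -0.030, -0.070 and -0.017.

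Of the 15 pairs, TF with FTL and HPX with TFR2 passed over all 10 libraries, and by r neither did without the 2 libraries farthest from the median. The share of all gene pairs with an r as high was not computed, so these pairs may be no closer than many others. Genes outside iron and heme handling reached a higher r, such as SLC17A1 with TF (0.99), TM7SF2 with FTL (0.95) and SCAP with HPX (0.91). For TF with FTL, Pearson's r over the 10 libraries was 0.84 (permutation p = 0.00127, adjusted over 15 pairs p = 0.00952) and Spearman's rho 0.87 (permutation p = 0.00234, adjusted p = 0.0181). Without the 2 libraries farthest from the median TF, r was 0.71 (exact permutation p = 0.0441, adjusted p = 0.221). For HPX with TFR2, r was 0.84 (permutation p = 0.000600, adjusted p = 0.00900) and rho 0.85 (permutation p = 0.00242, adjusted p = 0.0181). Without the 2 libraries farthest from the median HPX, r was 0.81 (exact permutation p = 0.0115, adjusted p = 0.0859) and rho 0.90 (exact permutation adjusted p = 0.0342). With the group means removed both pairs kept an r of 0.83 (permutation adjusted p = 0.0271 for each). That permutation moved values between the groups after their means were removed, so its p may be too small.

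**Figure D2:**
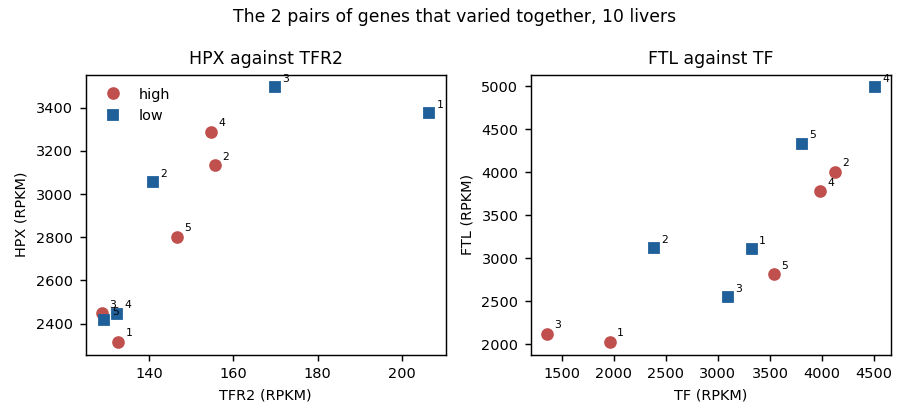
HPX against TFR2 (left) and FTL against TF (right), in RPKM, with a circle or square for each of 10 libraries and its replicate number. Low replicates 4 and 5 are high for TF and FTL but low for HPX and TFR2, with 2445 and 2417 RPKM for HPX.

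TFRC passed with no other gene over all 10 libraries. Its r was 0.65 with TF (permutation p = 0.0392, adjusted p = 0.183), 0.65 with FTL (permutation p = 0.0487, adjusted p = 0.183) and 0.21 with TFR2 (permutation p = 0.588, adjusted p = 0.882). Without the 2 libraries farthest from the median of TFRC, which were low replicates 4 and 5, its r with TFR2 was 0.92 (exact permutation p = 0.000769, adjusted p = 0.0115) and that with FTL 0.27 (exact permutation p = 0.505, adjusted p = 0.879). ALAS1 had an r between -0.13 and 0.31 with the other 5 genes, and its smallest adjusted permutation p was 0.829. TF with TFR2 had an r of 0.31 (permutation p = 0.387, adjusted p = 0.829), and FTL with HPX had 0.08 (permutation p = 0.824, adjusted p = 0.986).

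The livers were then put in the order of an acute phase level, the mean log2(RPKM + 1) of CRP, LBP, ITIH3, ITIH4, FGB, FGG, A2M, C3, C9 and PIGR, genes of plasma proteins of inflammation for the most part. It was lowest in low replicate 4 (8.71) and highest in low replicate 2 and high replicate 3 (10.0 and 10.1). Its genes did not all follow this order. ITIH3 had its highest value, 552 RPKM, in low replicate 4, where the level was lowest. C3 was highest in low replicate 1, at 1323 RPKM, and had 839 RPKM in high replicate 3, while PIGR had 1.30 to 4.75 RPKM. TF and FTL were highest at the low end. The hepatocyte level, the mean log2(RPKM + 1) of ALB, TTR, CPS1 and CYP2E1, was also higher at that end, at 11.7, 11.6 and 11.5 in low replicate 4, high replicate 2 and low replicate 5 and at 10.1 and 10.6 in low replicate 2 and high replicate 3. TTR, a plasma carrier protein made by hepatocytes, had 5244 RPKM in low replicate 4, 1532 in low replicate 2 and 696.5 in high replicate 3, and CYP2E1, a hepatocyte cytochrome, had 1431, 113.8 and 591.0 RPKM there. ALB went the same way, with 43854, 22922 and 23864 RPKM in these libraries. CPS1 did not, with 375 RPKM in low replicate 4, 330 in low replicate 2 and 609 in high replicate 3. A smaller share of hepatocytes and a fall of these transcripts within hepatocytes cannot be told apart here. The part of the hepatocyte level in the relations of TF, FTL and TFRC was not tested. TFRC was highest in low replicates 4 and 5, at places 1 and 3 of that order, while high replicate 2 between them had 10.1 RPKM. TF stood at 4507 RPKM in low replicate 4, 2391 in low replicate 2 and 1363 in high replicate 3. TFRC stood at 43.5, 4.67 and 5.57 RPKM in the same libraries.

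By rank 3 of the 18 relations passed over all 10 libraries. Spearman's rho with the acute phase level was -0.94 for TF (permutation p = 0.000240, adjusted over 18 relations p = 0.00432), -0.83 for FTL (permutation p = 0.00463, adjusted p = 0.0286) and -0.83 for TFRC (permutation p = 0.00477, adjusted p = 0.0286). Of the 10931 genes tested, 351 (3.21%) had a rho as low as that of FTL and TFRC or lower, and 1249 (11.4%) one as far from 0 in either direction. Pearson's r was -0.70 for TF (permutation p = 0.0313, adjusted p = 0.141), -0.77 for FTL (permutation p = 0.00426, adjusted p = 0.0767) and -0.63 for TFRC (permutation p = 0.0414, adjusted p = 0.149), none of which passed. Without the 2 libraries farthest from the median level, r was -0.87 for TF (exact permutation p = 0.00441, adjusted p = 0.0397), -0.90 for TFRC (exact permutation p = 0.00310, adjusted p = 0.0397) and -0.69 for FTL (exact permutation p = 0.0585, adjusted p = 0.351). By rank none passed there, with a rho of -0.88 for TF, -0.90 for TFRC (exact permutation adjusted p = 0.0652 for each) and -0.69 for FTL (exact permutation adjusted p = 0.416). With a pseudocount of 0.1, FTL did not pass by rank (rho -0.76, permutation adjusted p = 0.0891). Without high replicates 1 and 5, TFRC did not (rho -0.67, exact permutation adjusted p = 0.299). The 10 acute phase genes held between 2.32% and 10.4% of the summed RPKM. With each library rescaled by the median of ratios, rho was -0.73 for TF, -0.70 for FTL and -0.56 for TFRC, and none passed (permutation adjusted p = 0.219 for each).

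**Figure D3:**
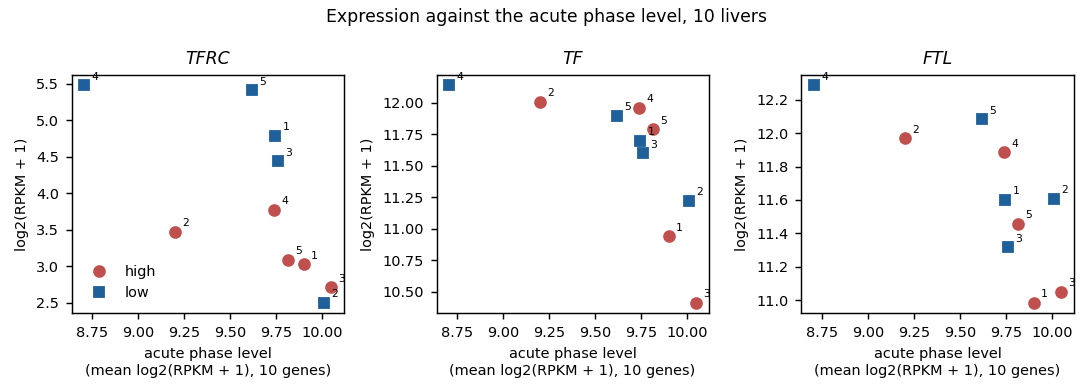
log2(RPKM + 1) of TFRC, TF and FTL (vertical axes) against the acute phase level (horizontal axis, mean log2(RPKM + 1) of 10 genes) in 10 libraries, with circles for high, squares for low and replicate numbers. At levels between 9.62 and 9.81, TFRC had 20.7 to 41.5 RPKM in 3 low libraries and 7.52 and 12.7 in 2 high libraries. At levels from 9.90 upward the order was the reverse, with 4.67 RPKM in low replicate 2 and 7.17 and 5.57 in high replicates 1 and 3.

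With the acute phase level as a covariate, TFRC had a log2 fold change of -1.07 (SE 0.40, unadjusted p = 0.0216 and adjusted p = 0.999 in limma), and TF and FTL had -0.14 and -0.18. HPX, TFR2 and ALAS1 had no rank relation with the acute phase level that passed (rho -0.07, -0.20 and -0.41, permutation adjusted p = 0.892, 0.839 and 0.555). None of the 6 genes had a relation that passed with the red blood cell level, and none with the level of Kupffer cells and macrophages, the resident phagocytes that recycle iron from red cells. The largest r with the latter were those of HPX, 0.77 (permutation p = 0.0148, adjusted p = 0.118), and TFR2, 0.70 (permutation p = 0.0197, adjusted p = 0.118). With the group means removed, the r of HPX was 0.83 and passed (permutation adjusted p = 0.0238), though the p may be too small since values were permuted across groups. The Kupffer cell genes CD68, CD14, MARCO, C1QA and CSF1R, 5 of 9 held, summed to 340 to 387 RPKM in high and 297 to 551 in low. These genes did not all go the same way. Low replicate 2 had the highest C1QA and CD68, at 301 and 52.2 RPKM, but the lowest MARCO, at 3.21. MARCO was highest in low replicate 4, at 12.2 RPKM.

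The genes most like each of the 6 were sought among 2699 genes with a symbol and a mean of at least 10 RPKM, by Pearson's r of log2(RPKM + 1) over the 10 libraries, as a description without a test. For TFRC they were PAN2, a subunit of a poly(A) nuclease (r 0.94), SELENBP1, a selenium-binding protein (r 0.90), and UBL5 (r 0.87). PAN2 kept between 20.6 and 26.1 RPKM, whereas SELENBP1 ranged like TFRC, with 8.05 to 45.1 RPKM in high and 86.9, 10.1, 30.8, 135 and 53.9 RPKM in low replicates 1 to 5. For TF they were the phosphate transporter SLC17A1 (r 0.99), TMEM205 (r 0.99) and the scaffold gene PDZK1 (r 0.98).

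FTL was most like TM7SF2, an enzyme of sterol synthesis (r 0.95), AMBP (r 0.94), whose product alpha-1-microglobulin binds heme, and the lysosomal enzyme gene GUSB (r 0.94). HPX was most like SCAP, a sterol-sensing escort protein (r 0.91), VIM (r 0.87) and MOCS1 (r 0.87). TFR2 was most like the collagen genes COL3A1 and COL1A2 (r 0.90 each) and ENTPD8 (r 0.88). The 6 stellate cell and fibroblast genes held, of 7, summed to 49.2 to 80.0 RPKM in high and 41.6 to 126 in low, the highest in low replicate 1, which also had the most TFR2, and their part in the TFR2 level was not tested. ALAS1 was most like RNF5 (r 0.87), the peroxisomal thiolase gene ACAA1 (r 0.82) and GOLGA5 (r 0.81).

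Beyond the 6 genes, 81 others of iron and heme handling were listed, of which 57 were held by the table and 49 tested. None passed in limma. Of the 49, 25 had the higher mean in high and 24 in low, with a median log2 fold change of 0.01, beside -0.005 over all 10931 genes. Before adjustment 1 of the 49 was under 0.05 in the direction of high (2.27% of all genes) and 0 in the direction of low.

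**Figure D4:**
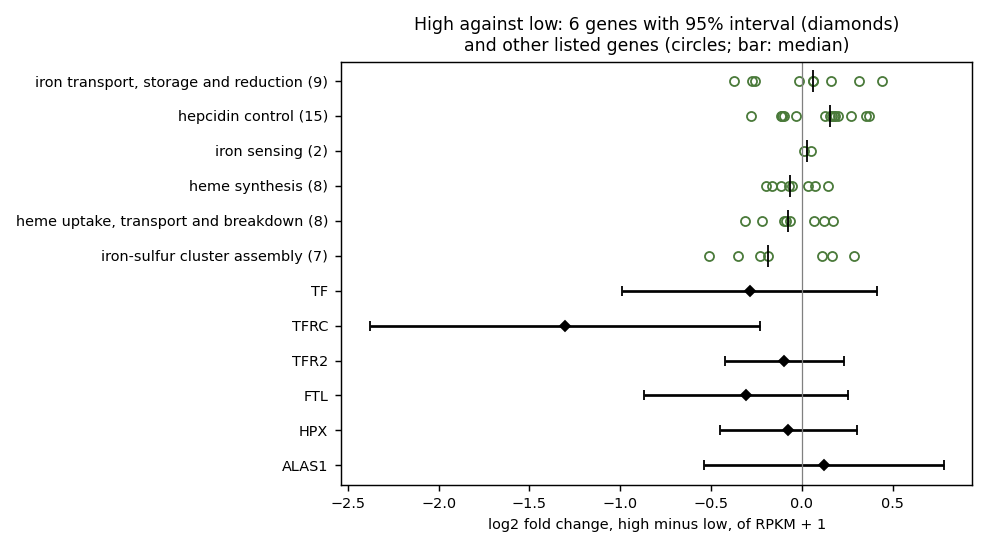
Log2 fold changes of RPKM + 1, high minus low (horizontal axis), for the 6 genes as diamonds with 95% intervals from limma, and for 49 other genes as circles by list, with a bar at each list's median. TFRC, at -1.31, lies beyond all 49 other genes, which run from -0.51 to 0.44.

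Among genes of iron transport, storage and reduction 5 of 9 had the higher mean in high, with a median log2 fold change of 0.06. SLC39A8, a transporter of zinc, manganese and iron, had 14.0 ± 2.74 RPKM in high and 10.1 ± 1.88 in low (log2 fold change 0.44, SE 0.16, unadjusted p = 0.0169 and adjusted p = 0.961 in limma). CP, the plasma ferroxidase ceruloplasmin, had 749.5 ± 124 and 613 ± 147 RPKM, with its lowest value, 365 RPKM, in low replicate 4. SLC40A1, the iron exporter ferroportin, had 25.5 ± 10.4 and 23.8 ± 7.30 RPKM. STEAP3 and STEAP4, which encode metalloreductases, had 31.4 ± 12.2 and 9.26 ± 1.17 RPKM in high and 35.6 ± 4.88 and 13.0 ± 5.16 in low.

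Hepcidin itself is not analysed here, but 15 genes that control it were tested, 9 of them with the higher mean in high and a median of 0.15. BMP6, the ligand that signals iron stores, had 22.0 ± 3.92 RPKM in high and 19.9 ± 1.70 in low. TMPRSS6, a hepatocyte protease that holds hepcidin down, had 22.4 ± 9.43 and 26.3 ± 7.98 RPKM. Its lowest values, 12.2 and 12.4 RPKM, were in high replicates 1 and 3, where TF was lowest too. STEAP3, UROS, BLVRA, AMBP, ISCU and GLRX5 were also lowest in high replicates 1 and 3. The BMP receptor genes BMPR1A and ACVR2A had 4.64 ± 0.682 and 3.06 ± 0.354 RPKM in high and 3.97 ± 0.605 and 2.60 ± 0.315 in low. The inhibitory SMAD6 had 1.66 ± 0.173 and 1.23 ± 0.387 RPKM (unadjusted p = 0.0622 in limma). IL6ST, the signal-transducing receptor of interleukin-6, had 28.2 ± 8.11 and 21.5 ± 5.58 RPKM.

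Of the iron sensors, ACO1 had 46.5 ± 3.86 RPKM in high and 45.3 ± 7.43 in low. FBXL5, which marks IREB2 protein for breakdown, had 32.7 ± 5.13 and 32.1 ± 2.17. IREB2 was below the mean of 1 RPKM required for testing. It had 0.65, 0.55, 0.58, 0.46 and 0.62 RPKM in high replicates 1 to 5 and 0.65, 0.61, 0.42, 0.20 and 0.28 in low replicates 1 to 5. Its lowest values fell in low replicates 4 and 5, the libraries with the most TFRC. BMPR2, SMAD4, FECH and HSPA9 also had their lowest values in low replicates 4 and 5. A relation of IREB2 with TFRC was not tested.

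Heme synthesis genes had the higher mean in low in 5 of 8, with a median of -0.06. FECH, which inserts iron into the ring, had 15.1 ± 3.22 RPKM in high and 13.4 ± 1.92 in low. UROS and PPOX, enzymes of the middle and late steps, had 23.4 ± 5.77 and 5.83 ± 1.33 RPKM in high and 25.1 ± 4.89 and 6.96 ± 2.13 in low. SLC25A38, the mitochondrial carrier that supplies glycine for the step of ALAS1, had 17.8 ± 2.43 and 21.2 ± 9.80 RPKM, with 38.4 RPKM in low replicate 2.

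Of 8 genes of heme uptake, transport and breakdown 5 had the higher mean in low, with a median of -0.08. AMBP had 2600 ± 686 RPKM in high and 2985 ± 620 in low. The biliverdin reductase genes BLVRA and BLVRB had 23.8 ± 9.85 and 48.1 ± 12.4 RPKM in high and 28.0 ± 4.26 and 50.1 ± 11.7 in low. The heme exporter gene FLVCR1 and its relative FLVCR2 had 12.3 ± 0.722 and 17.7 ± 1.12 RPKM in high and 11.4 ± 2.43 and 16.0 ± 3.83 in low.

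In iron-sulfur cluster assembly 4 of 7 genes were higher on average in low, and the median was -0.19. ISCU, the scaffold on which the clusters are built, had 110.2 ± 31.4 RPKM in high and 139.8 ± 34.4 in low. GLRX5, which passes clusters on, had 29.3 ± 12.9 and 42.4 ± 21.2 RPKM, with 76.9 RPKM in low replicate 4. The chaperone gene HSPA9 had 164 ± 36.1 and 139 ± 53.4 RPKM, and ISCA2 had 6.41 ± 1.06 and 7.91 ± 2.46. None of these genes passed (adjusted p from 0.961 upward in limma).

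**Figure D5:**
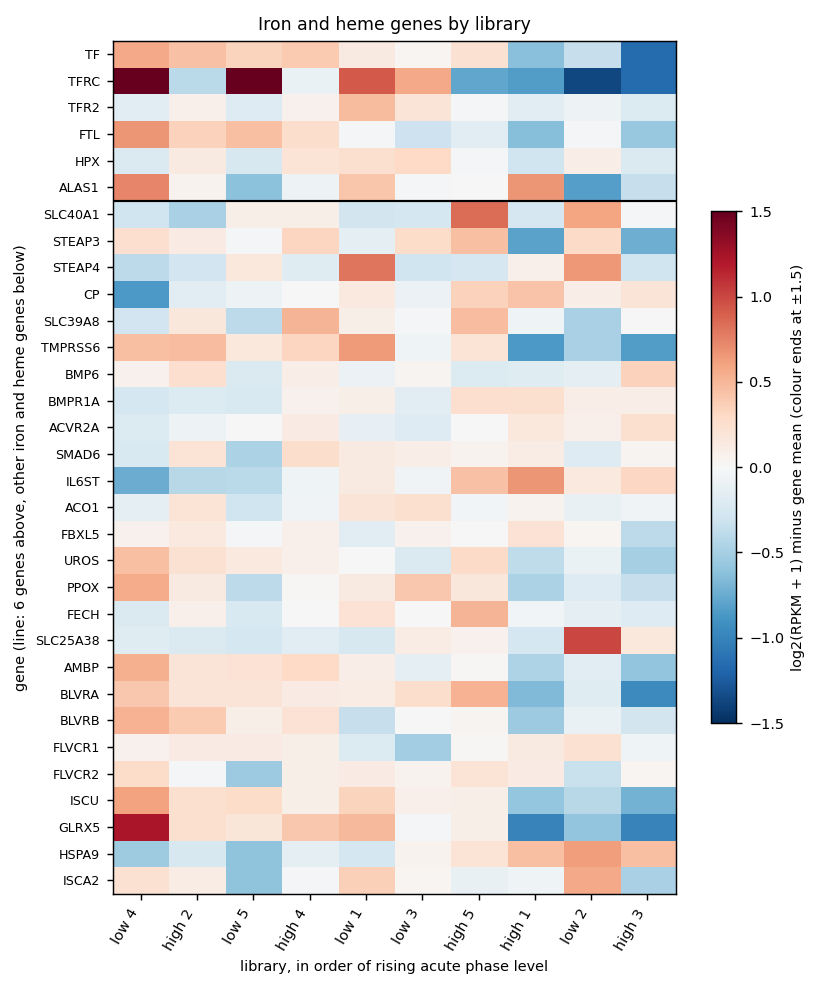
log2(RPKM + 1) minus the mean of each gene (colour, ends at ±1.5) for the 6 genes above the line and the named other genes below it, in 10 libraries ordered by rising acute phase level. TF, FTL, ISCU and GLRX5 are reddest in low replicate 4 and bluest in high replicates 1 and 3, and TFRC is reddest in low replicates 4 and 5.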

How the data were processed

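Liver RNA of 10 samples was sequenced, per the labels' protocols, in paired reads from TruSeq v2 libraries, which do not mark strand, with RNA integrity numbers given only as a range. The submitters' processing notes name the build Sscrofa10.2, while aligner, counter and annotation were not given in the sources used here. RPKM were deposited per gene and library by the authors, per the file headers, and 624 deposited values of 1000 or more carried a second dot as digit-group mark, which was removed. The deposited table also holds the authors' signed linear fold and the authors' p-value, whose test is not stated. Of 25009 identifiers 11779 had a symbol in the name table, and 7224 of the 10931 tested.

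Values were analysed as log2(RPKM + 1). Genes averaging 1 RPKM or more were fitted with limma 3.58.1 in R 4.3.3 (lmFit, eBayes with trend, two-sided, all 10 libraries, no covariates), with Benjamini-Hochberg adjustment over all genes and a threshold of 0.05. The fit was tested on simulated data. Correlations used two-sided permutation tests with 100000 resamples for 10 libraries and exact ones for 8. The planned count tests did not apply to RPKM, and without gene lengths whole reads were not recovered, so no counting interval is given.

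The named genes were the 6 found, up to 4 tested genes of smallest p per list with 12 others fixed by name, of which HFE, HJV, HP and CD163 were matched to no row, and the 3 genes most like each of the 6. The members and lists were chosen with earlier results of these data known. Other markers held were those of endothelial cells (summed RPKM 59.3 to 79.3 in high, 50.2 to 92.7 in low), cholangiocytes (7.67 to 16.5 and 8.20 to 20.0), neutrophils (0.780 to 3.52 and 0.880 to 8.38) and B and plasma cells (0.750 to 1.28 and 1.06 to 2.71). Low replicates 4 and 2 lay at the ends of the acute phase level within low. High replicates 1 and 5 were left out together as an alternative. In these libraries GFAP had 3.66 and 4.22 RPKM against 0 to 0.35 in the other 8. SCG2 had 0.85 and 0.9 RPKM and SNAP25 0.5 and 0.59, each against at most 0.03 in the other 8. The cell source of GFAP, SCG2 and SNAP25 was not tested.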

Additional observations from a re-analysis of the deposited data

Results flagged for a closer look

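SLC25A38, the mitochondrial glycine carrier of heme synthesis, had 38.4 RPKM in low replicate 2, above the other 4 low libraries, at 15.4 to 20.3 RPKM. Of 66 groups of 5 libraries examined for a library far from the rest, this was the only one found, fewer than the 3.3 that chance gives at about 1 in 20. The same library had the lowest TFRC and ALAS1, at 4.67 and 80.0 RPKM.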

How the results depend on the processing

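In limma 0 of the 6 genes and 0 of all genes passed under each alternative run, with 198 to 912 genes at an unadjusted p under 0.05, and leaving out each library in turn gave 0 to 0 calls. The log2 fold change of TFRC kept its sign throughout, from -1.81 to -1.07 with single libraries left out, and was -1.20 without high replicates 1 and 5 (unadjusted p = 0.0837 in limma). Directions turned for HPX under quantile normalization (0.022) and without high replicates 1 and 5 (0.0054), and for ALAS1 without the latter (-0.063). With the T and NK cell level as a covariate, chosen after seeing the data, TF had 0.015 and FTL 0.059. With single libraries left out TFR2 ran from -0.16 to 0.0090, ALAS1 from -0.070 to 0.32, TF from -0.44 to -0.036, FTL from -0.43 to -0.18 and HPX from -0.14 to -0.011. The cause was not tested.

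Of 18 relations with levels, 0 passed by r, but 2 did without the 2 libraries farthest from the median and 2 with group means removed. The latter setting was chosen after seeing the data, and its p-values may be too small. By rho 3 passed, and 0 did under median of ratios scaling and 0 without the 2 farthest libraries. Of 15 pairs 2 passed by r, and without the 2 farthest libraries both were lost by r and 1 other, TFRC with TFR2, passed. By rho 2 passed, 1 under median of ratios scaling and 0 without high replicates 1 and 5. The fits with the acute phase and red blood cell levels as covariates were also chosen after seeing the data. No paired analysis was possible because the replicate numbers were given in accession order and pair nothing. The planned DESeq2 fit was not run, since the values are not counts.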
